A study of Mus musculus with 16 samples.

Results

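The levels of 35 vascular genes were followed through bulk mouse retina, 25 of them known from endothelial cells and 10 from mural cells, the pericytes and smooth muscle cells that wrap the vessels. They were listed by name with earlier results of these data known. All 35 were found by symbol among the 54532 genes of the FPKM table and by the same gene identifier among the 48440 genes of the count table. The retinas fall into 5 groups. Injected retinas came from 18-month-old wildtype mice: 3 received 0.36 nmol of the polyunsaturated fatty acid 24:5 into the vitreous, 3 received vehicle in the fellow eye, and both were collected 5 days later. Uninjected retinas were 4 from 18-month-old wildtype mice, 3 from 12-month-old mice with a mutation in Elovl2 (C234W by the study design, though the genotype labels read C34W), and 3 from 12-month-old wildtype mice. The strain named for the uninjected groups is C57BL6/J. Elovl2 encodes an enzyme that elongates long polyunsaturated fatty acids. The labels do not say which replicates came from separate animals or which 2 eyes belonged to one mouse, so every p-value measures the spread between these libraries, which may be partly technical.

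Retinal capillaries form a barrier between blood and neural tissue. Endothelial cells seal the vessel wall with claudin-5 and VE-cadherin and control exchange with transporters, VEGF receptors (Kdr, Flt1) and angiopoietin receptors (Tek, Tie1) govern their growth and quiescence, and adhesion molecules such as Icam1 and Vcam1 are present at higher levels on activated endothelium and bind leukocytes. Pericytes, recruited through the PDGF receptor Pdgfrb, share the capillary basement membrane, while arterioles carry smooth muscle with contractile proteins. Several of these genes are not confined to vessels: Slc2a1 is also used by photoreceptors, glia and pigment epithelium, Vcam1 by glia, Icam1 and Cd93 by myeloid cells, and Anpep by myeloid cells and fibroblasts. In bulk tissue, fewer cells of a type and less RNA per cell cannot be told apart.

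Promoter windows of a few members the results turn on are shown for the letters they hold. RefSeq windows on GRCm38.p6, from 250 bases before to 50 after an annotated start, were at hand for 23 of the 35 members (28 windows). The letters AGGAAG, an extended form of the GGAA core of ETS factors, occurred on either strand in 14 of 21 endothelial windows (11 of 16 members) and in 0 of 7 mural windows (7 members), against 35.4% of 32851 mouse windows. TATAAA on the sense strand occurred in 7 of the endothelial windows and in 0 mural ones, against 8.32% of all windows. Windows of 4 members are shown, with matches to either motif in capitals: Slco1a4, which stood highest in rank among the members with age, Cldn5 and Icam1, which were lower without overlap after 24:5, and Rgs5, the most abundant mural member. They lie at chr6:141856171-141856470 (minus strand), chr16:18776597-18776896 (plus), chr9:21015690-21015989 (plus) and chr1:169655251-169655550 (plus).
Slco1a4: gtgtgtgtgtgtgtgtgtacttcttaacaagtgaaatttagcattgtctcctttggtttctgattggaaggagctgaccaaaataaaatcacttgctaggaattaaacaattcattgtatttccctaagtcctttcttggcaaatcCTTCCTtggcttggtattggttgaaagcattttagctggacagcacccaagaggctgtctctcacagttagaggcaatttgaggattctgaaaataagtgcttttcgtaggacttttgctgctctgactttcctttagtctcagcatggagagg
Cldn5: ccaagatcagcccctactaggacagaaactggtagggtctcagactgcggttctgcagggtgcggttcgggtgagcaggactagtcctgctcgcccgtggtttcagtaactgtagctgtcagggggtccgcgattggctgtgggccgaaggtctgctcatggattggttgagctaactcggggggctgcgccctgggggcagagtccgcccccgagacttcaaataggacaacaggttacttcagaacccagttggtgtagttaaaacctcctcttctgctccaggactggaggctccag
Icam1: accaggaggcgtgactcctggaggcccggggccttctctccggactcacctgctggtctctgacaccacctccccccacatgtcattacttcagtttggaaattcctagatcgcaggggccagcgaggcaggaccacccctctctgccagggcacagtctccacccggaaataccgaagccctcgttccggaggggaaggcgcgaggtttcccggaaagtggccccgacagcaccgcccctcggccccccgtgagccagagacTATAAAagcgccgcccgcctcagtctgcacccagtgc
Rgs5: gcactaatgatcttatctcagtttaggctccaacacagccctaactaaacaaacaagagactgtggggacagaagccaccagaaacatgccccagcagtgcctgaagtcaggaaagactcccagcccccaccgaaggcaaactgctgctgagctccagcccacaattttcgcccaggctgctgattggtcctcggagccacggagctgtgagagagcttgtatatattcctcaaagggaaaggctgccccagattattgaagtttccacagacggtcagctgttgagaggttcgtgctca
The Slco1a4 window held AGGAAG on the opposite strand, starting 104 bases before the annotated start. The Icam1 window held TATAAA 13 bases after its annotated start, and the Cldn5 and Rgs5 windows held neither run of letters. A match is a description of the letters in the window, and no match says only that these letters were not there.

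In the uninjected retinas the glucose transporter Slc2a1 (GLUT1) had the highest level per length, with a mean of 67.8 FPKM over the 10 libraries (range 55.4 to 73.5). Rgs5, a regulator of G-protein signalling and a pericyte marker, followed at 18.5 FPKM (12.7 to 20.7) and the VEGF receptor Kdr at 16.6 FPKM (14.2 to 25.8). The ranges of Rgs5 and Kdr overlapped, so their order was within the spread between libraries. The tight-junction protein Cldn5 averaged 10.7 FPKM (7.49 to 15.4), and the VEGF receptor Flt1 8.24 FPKM (7.22 to 9.11), again with overlapping ranges. Members with means between 1 and 8 FPKM included the membrane antigens Ly6c1 (7.33 FPKM) and Ly6a (7.29 FPKM), the junction protein Esam (5.68 FPKM), the fenestral diaphragm protein Plvap (4.35 FPKM) and the thyroid-hormone and anion transporter Slco1c1 (3.44 FPKM). On the mural side Pdgfrb averaged 3.25 FPKM, the actin Acta2 of smooth muscle 3.24 FPKM, the potassium-channel subunits Kcnj8 1.76 FPKM and Abcc9 1.17 FPKM, and the receptor Notch3 1.06 FPKM. At the low end stood Anpep, an aminopeptidase of the pericyte surface, with 0.112 FPKM and 2 to 24 reads per library, and the smooth-muscle protein Tagln with 0.142 FPKM and 3 to 10 reads.

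**Figure D1:**
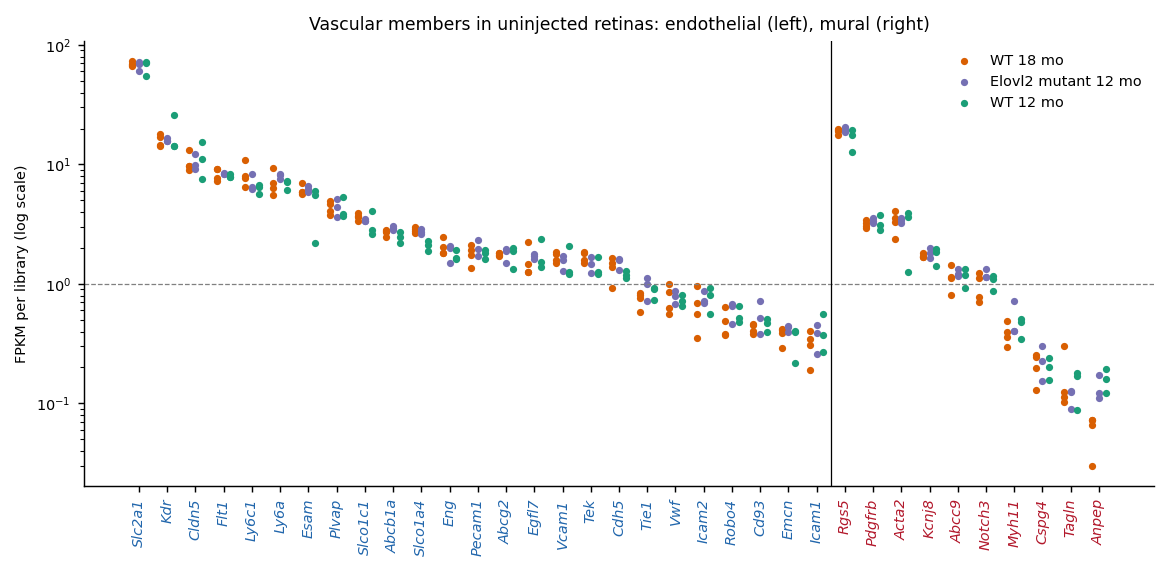
FPKM per library on a log axis for the 25 endothelial members (blue names, left) and 10 mural members (red names, right) in uninjected retinas, with 18-month wildtype, 12-month Elovl2 mutant and 12-month wildtype libraries side by side. Slc2a1 stands above all other members at 55.4 to 73.5 FPKM, and 11 members average below the dashed line at 1 FPKM.

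A mean of at least 1 FPKM was required for testing, and 24 of the 35 members passed it. Of the endothelial members 18 of 25 passed, while Cd93, Emcn, Icam1, Icam2, Robo4, Tie1 and Vwf were below. Of the mural members 6 of 10 passed, while Anpep, Cspg4, Myh11 and Tagln were below. In the count table of the injected retinas all 35 members passed the count filter. Anpep did so only through the vehicle libraries, the group where it was higher. Depth was 12810558 to 30519417 reads per uninjected library, recovered from the FPKM values, and 22066668 to 25609242 counts per injected library. Elovl2 RNA stood at 23.9 ± 0.0705 FPKM in 18-month wildtype (SD, n = 4), 20.7 ± 1.12 FPKM in mutant and 21.3 ± 1.91 FPKM in 12-month wildtype retinas (SD, n = 3 each), and the level of an RNA does not check a point mutation. The summed levels of 5 rod photoreceptor genes were between 9601 and 11008 FPKM in every uninjected library, and between 33353 and 43062 CPM in every injected one, so the labelled tissue carried its defining genes.

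Retinas given 24:5 had lower levels than vehicle retinas for most vascular members, in both classes, but no member passed the adjusted threshold. Of 25 endothelial members 20 had a log2 fold change below 0 and 5 above, with a median of -0.29, and of 10 mural members 9 were below 0 and 1 above, also with a median of -0.29. Over all 17466 genes tested the median was 0.00, and 49.2% were below 0. Members were called at an adjusted p under 0.05 by edgeR's quasi-likelihood test (Benjamini-Hochberg over all genes), which called 0.0115% of all genes and 0 members. At an unadjusted p under 0.05, 8 members were lower and 0 higher, against 5.16% of all genes lower and 1.44% higher. The 2 groups of libraries did not overlap for 8 members, all lower with 24:5, against 6.77% of all genes lower without overlap and 4.82% higher. Both counts of 8 include Anpep, which passed the count filter only through the vehicle libraries. Since the members were chosen with earlier results of these data known, the shares over all genes stand beside these counts as description and not as a test.

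Genes of an endothelial surface protein and a secreted one had the smallest p-values. Vwf, the von Willebrand factor of endothelial storage granules that binds platelets, had 27.3, 30.5 and 23.5 CPM in 24:5 retinas, against 54.0, 47.6 and 63.5 CPM in vehicle retinas. Every 24:5 library lay below every vehicle library. Its log2 fold change was -1.02 (SE 0.134, adjusted p = 0.166 in edgeR), and it ranked as number 7 of the 17466 genes. Cd93, a C-type lectin-like receptor of endothelial and myeloid cells, had 8.47, 10.2 and 6.96 CPM in 24:5 retinas, against 24.8, 21.7 and 17.2 CPM in vehicle retinas. These groups were also apart, with a log2 fold change of -1.31 (SE 0.183, adjusted p = 0.171 in edgeR) at rank 9.

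The 9 adhesion and junction members all had log2 fold changes below 0, with a median of -0.54. Vcam1, which binds the leukocyte integrin VLA-4, had 20.8, 21.5 and 16.8 CPM in 24:5 retinas, against 37.7, 39.8 and 30.8 CPM in vehicle retinas, a log2 fold change of -0.88 (SE 0.133, adjusted p = 0.171 in edgeR). Icam1, which binds the leukocyte integrin LFA-1, had 2.51, 5.08 and 2.87 CPM with 24:5, against 10.9, 7.40 and 5.46 CPM with vehicle, a log2 fold change of -1.19 (SE 0.346, adjusted p = 0.459 in edgeR). In both genes the lowest vehicle library, replicate 3, still lay above the highest 24:5 library. Cldn5 had 15.9, 14.5 and 10.7 CPM with 24:5, against 21.1, 18.4 and 20.2 CPM with vehicle, a log2 fold change of -0.54 (SE 0.153, adjusted p = 0.452 in edgeR). Icam2, an adhesion molecule of resting endothelium, had 1.11, 0.804 and 1.23 CPM against 1.96, 1.38 and 1.24 CPM, groups that were apart by a narrow margin at 19 to 45 counts per library. Cd93 is given above, and the other 4 overlapped between groups: Pecam1 (CD31) had a log2 fold change of -0.18, the sialomucin Emcn -0.29, Esam -0.09 and VE-cadherin (Cdh5) -0.06.

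The receptors (median -0.29 over 6) and barrier transporters (median -0.23 over 5) lay nearer to 0. Tek, the angiopoietin receptor Tie2, had 10.5, 7.62 and 7.82 CPM in 24:5 retinas, against 11.3, 11.2 and 11.4 CPM in vehicle retinas (log2 fold change -0.39, SE 0.153, adjusted p = 0.691 in edgeR), with no overlap. Its relative Tie1 had a log2 fold change of -0.38, the guidance receptor Robo4 -0.29, the TGF-beta co-receptor Eng -0.28 and Kdr -0.24, and these 4 overlapped between groups. Flt1, a decoy receptor for VEGF, was at 0.01 (SE 0.108), with 129 to 145 CPM in 24:5 retinas and 121 to 159 CPM in vehicle retinas. Among the barrier transporters Slc2a1 stood at 0.00 (SE 0.0862), with 206 ± 19.5 CPM in 24:5 retinas and 206 ± 10.2 CPM in vehicle retinas (SD, n = 3 each). The organic anion transporter Slco1a4 was at -0.59 with a large SE of 0.342, since 24:5 replicate 1 (25.0 CPM) stood among the vehicle libraries (28.7, 28.2 and 18.0 CPM) while the other 24:5 libraries had 13.8 and 11.2 CPM. The efflux pumps Abcb1a and Abcg2 were at -0.37 and -0.23, and Slco1c1 was at 0.10 (SE 0.313). Of the remaining endothelial members, the secreted Egfl7 was at -0.30, and Ly6c1, Ly6a and Plvap stood between 0.02 and 0.03.

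Among the mural members Anpep had 0.676, 0.381 and 0.0819 CPM in 24:5 retinas, against 4.36, 3.56 and 1.06 CPM in vehicle retinas. These levels rested on 17, 9 and 2 counts with 24:5, against 100, 85 and 24 counts with vehicle, and the groups were apart. Anpep passed the count filter only through the vehicle libraries, so its fold change and p are given as description only. The log2 fold change was -2.96 (SE 0.730, adjusted p = 0.375 in edgeR). Pdgfrb had 23.0, 28.9 and 21.2 CPM with 24:5, against 31.4, 27.6 and 31.1 CPM with vehicle, where 24:5 replicate 2 stood above vehicle replicate 2 (log2 fold change -0.30, SE 0.128, adjusted p = 0.750 in edgeR). Abcc9 had 17.0, 14.7 and 12.2 CPM against 18.7, 18.1 and 16.7 CPM, and Notch3 7.40, 5.03 and 6.59 CPM against 8.85, 6.99 and 8.34 CPM, with 24:5 first. Their log2 fold changes were -0.29 and -0.34, and 1 library of each group crossed. The proteoglycan Cspg4 (NG2) was at -0.48, Acta2 at -0.50, Tagln at -0.21, Kcnj8 at -0.16 and Rgs5 at -0.13, all with overlap. Myh11, the smooth-muscle myosin heavy chain, was the only mural member above 0, at 0.37 (SE 0.250), with 3.68 to 5.49 CPM in 24:5 retinas and 2.57 to 4.18 CPM in vehicle retinas.

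**Figure D2:**
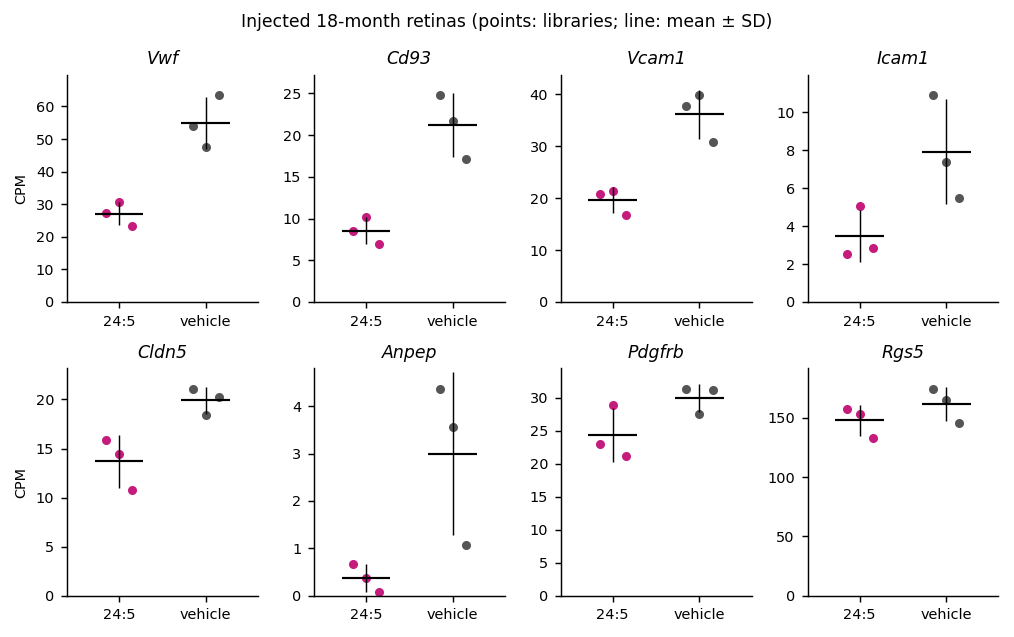
CPM, counts scaled to library size by TMM, of 8 members in each injected retina, 24:5 left of vehicle, with the mean and SD of 3 libraries a group. Vwf, Cd93, Vcam1, Icam1, Cldn5 and Anpep do not overlap between groups, while Pdgfrb and Rgs5 do.

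**Figure D3:**
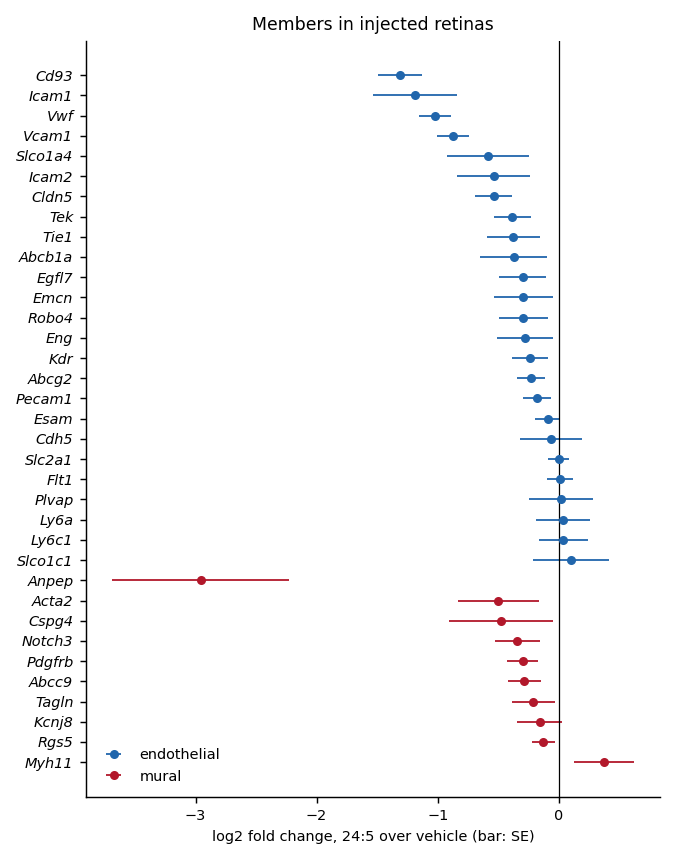
Log2 fold change of 24:5 over vehicle with its SE for the 25 endothelial (blue) and 10 mural (red) members, sorted within each class. Most points lie left of 0 in both classes, Anpep lies farthest left at -2.96, and 5 endothelial members and 1 mural member lie right of 0.

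The calls of members in this comparison depended on the fit. DESeq2 called 5 members, all lower (Vwf, Cd93, Vcam1, Icam1 and Anpep), among 245 of 28984 genes tested (0.845%). Leaving out vehicle replicate 3 let edgeR call Vwf (adjusted p = 0.0333), Cd93 (0.0284) and Vcam1 (0.0309), 3 of 35 members, where it called 105 of 17991 genes (0.584%), and leaving out any other injected library gave 0 members. Without 24:5 replicate 3 the mural median was -0.19.

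Other measures differed between these injected libraries in ways that go with the groups or cross them. The summed level of 12 microglia and macrophage genes was 140, 111 and 85.9 CPM in 24:5 retinas, against 264, 237 and 158 CPM in vehicle retinas, and all 12 genes had log2 fold changes below 0 (median -0.98). None of the 12 genes was at 0 in every library. Summed astrocyte genes were 208 to 263 CPM with 24:5 and 286 to 332 CPM with vehicle, while of the 4 genes of that list that were tested 2 were above and 2 below 0. Summed lens genes were 384, 77.0 and 32.1 CPM with 24:5, against 984, 1130 and 75.0 CPM with vehicle. Summed fibroblast genes overlapped, at 25.95 to 45.2 CPM with 24:5 and 32.4 to 61.1 CPM with vehicle. Of the 5 genes of that list that were tested 2 were above and 3 below 0. Pdgfra, which is also in the astrocyte list, was at 0.24, and the collagen genes Col1a2 and Col3a1 at -1.32 and -0.79, all with overlap. Of 12 interferon and cytokine response genes 11 were below 0 (median -0.87), and 2 of them, Rnf213 and Ifit1, were the genes that edgeR called. The part of these differences in the vascular values was not tested. Levels of the interferon regulator Irf9 crossed the groups. At a cut of 100 CPM, chosen after its values were seen, 24:5 replicate 1 (21.6 CPM of total counts) and vehicle replicates 1 and 2 (61.0 and 57.7 CPM) were low, and 24:5 replicates 2 and 3 (204 and 156 CPM) and vehicle replicate 3 (233 CPM) were high. The low side thus holds 1 24:5 library and the high side 1 vehicle library. On the low side Vwf had 27.3 CPM in the single 24:5 library and a mean of 50.8 CPM in the 2 vehicle libraries. On the high side it had a mean of 27.0 CPM in the 2 24:5 libraries and 63.5 CPM in the single vehicle library. Cd93 had 8.47 CPM with 24:5 and 23.2 CPM with vehicle on the low side, and 8.56 CPM with 24:5 and 17.2 CPM with vehicle on the high side. With the split at 100 CPM as a term of the fit, edgeR called 5 of 35 members (Vwf, Cd93, Vcam1, Kdr and Anpep), against 300 of 17466 genes (1.72%). A split at the largest gap in log2 Irf9 set 24:5 replicate 1 alone apart, and with that split as a term edgeR called 0 members and 1 gene.

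With age, 18-month against 12-month wildtype retinas, differences were small and no member passed the adjusted threshold in limma on log2(FPKM + 1), where 0% of 13786 genes did. edgeR and DESeq2 on the recovered reads also called 0 members. Endothelial members that passed the filter had a log2 fold change above 0 in 14 of 18 cases (median 0.09), mural ones in 2 of 6 (median -0.01), and the median over all genes was 0.00. One member, Slco1a4, had an unadjusted p under 0.05 and did not overlap between groups, being higher at 18 months, against 1.69% of all genes higher (1.96% lower) by that p and 1.95% higher (2.22% lower) without overlap. Slco1a4 carries organic anions across the blood-brain and blood-retina barriers in rodents. It had 2.998, 2.87, 2.75 and 2.68 FPKM in 18-month retinas, against 2.28, 1.88 and 2.14 FPKM in 12-month wildtype retinas. Every 18-month library lay above every 12-month library, with a log2 fold change of 0.30 (SE 0.073, adjusted p = 0.9999 in limma) and rank 25 of all genes.

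The next members by p all overlapped between the ages. Ly6c1 had 7.78, 8.05, 10.9 and 6.47 FPKM at 18 months, against 6.50, 5.63 and 6.80 FPKM at 12 months (log2 fold change 0.33, SE 0.151). Esam had 7.04, 5.62, 5.85 and 5.90 FPKM at 18 months, against 2.21, 5.51 and 5.95 FPKM at 12 months, so its difference of 0.43 (SE 0.227) rested on the single low value of 12-month wildtype replicate 1. The same library had the highest Kdr of all uninjected libraries, 25.8 FPKM. Tek was at 0.18, Slco1c1 at 0.18 and Eng at 0.15. Of the mural members Rgs5 had 19.3, 17.7, 19.98 and 19.1 FPKM at 18 months, against 17.6, 12.7 and 19.4 FPKM at 12 months (log2 fold change 0.21, SE 0.119), and Acta2 4.08, 2.39, 3.57 and 3.28 FPKM, against 3.61, 1.25 and 3.94 FPKM (0.20, SE 0.248). In both genes 12-month wildtype replicate 2 held the lowest value. Notch3 was at -0.07 and Pdgfrb at -0.02. Among the 11 members below the filter, Anpep had 0.0657, 0.0722, 0.0302 and 0.0721 FPKM at 18 months, against 0.195, 0.123 and 0.160 FPKM at 12 months, without overlap, and no read count above 24. In the fit without a filter its log2 fold change was -0.13 (SE 0.0462, adjusted p = 0.973 in limma). The summed level of 6 fibroblast genes was 1.40 to 1.91 FPKM at 18 months and 2.13 to 3.85 FPKM at 12 months. Only 1 of these 6 genes passed the filter, Pdgfra, which is also in the astrocyte list. It had means of 0.840 FPKM at 18 months and 1.49 FPKM at 12 months. Without the 12-month wildtype libraries, where it was highest, Pdgfra would not have passed the filter. The part of these levels in the Anpep values was not tested.

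In 12-month Elovl2 mutant retinas, set against the same 3 wildtype libraries, 15 of 18 endothelial members (median log2 fold change 0.07) and 6 of 6 mural members (median 0.08) were above 0, where the median over all genes was -0.01. No member passed the adjusted threshold in limma, and 0% of all genes did, while edgeR and DESeq2 on the recovered reads also called 0 members. At an unadjusted p under 0.05, 2 members were higher, Slco1a4 and Abcb1a, against 1.08% of all genes higher and 1.11% lower. Without overlap, 5 members were higher (Slco1a4, Abcb1a, Cdh5, Ly6a and Flt1) and 0 lower, against 3.05% of all genes higher and 2.92% lower. Slco1a4 had 2.72, 2.86 and 2.61 FPKM in mutant retinas, against 2.28, 1.88 and 2.14 FPKM in wildtype retinas (log2 fold change 0.27, SE 0.0781, adjusted p = 0.9998 in limma). Abcb1a, the P-glycoprotein pump that returns drugs to the blood, had 3.04, 2.81 and 2.93 FPKM in mutant retinas, against 2.46, 2.21 and 2.73 FPKM in wildtype retinas (0.18, SE 0.0808). Cdh5 had 1.62, 1.32 and 1.58 FPKM, against 1.27, 1.11 and 1.19 FPKM in wildtype, and Ly6a 8.20, 7.55 and 8.31 FPKM, against 7.20, 6.07 and 7.26 FPKM in wildtype. Flt1 was 8.33 to 8.56 FPKM in mutant retinas and 7.82 to 8.25 FPKM in wildtype retinas, a difference of 0.07 on the log2 scale. Esam (0.46, SE 0.243) again rested on wildtype replicate 1, and Pecam1 was at 0.11. Of the mural members Rgs5 had 18.6, 19.6 and 20.7 FPKM in mutant retinas, against 17.6, 12.7 and 19.4 FPKM in wildtype (0.25, SE 0.128), Acta2 was at 0.25, Notch3 at 0.11 and Pdgfrb at 0.05. Notch3, counted among the 6 mural members above 0, passed the filter only through the mutant libraries, where it was highest.

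**Figure D4:**
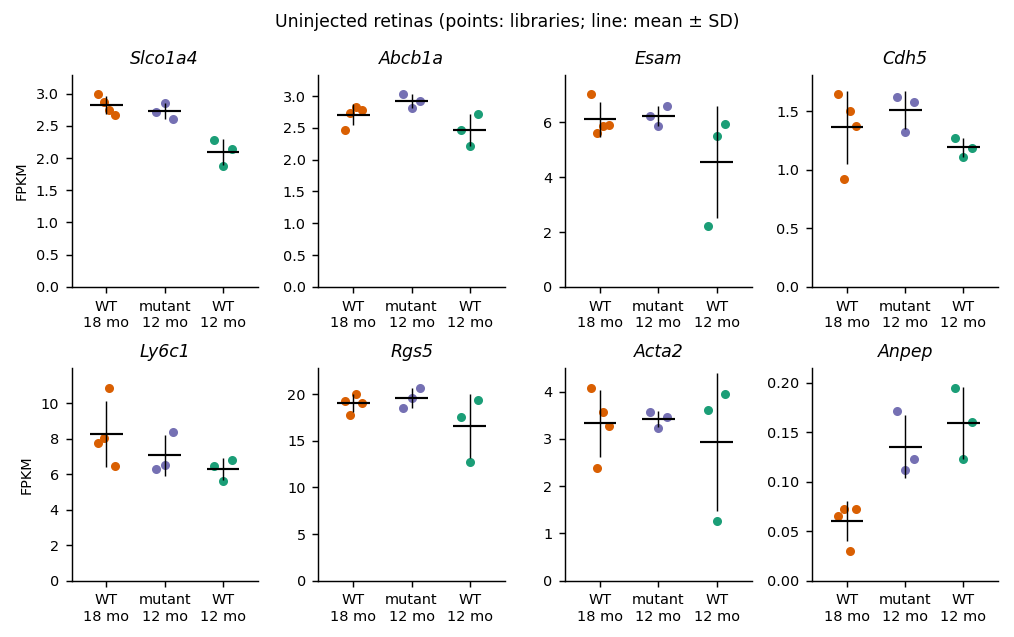
FPKM of 8 members in each uninjected library, with 18-month wildtype and 12-month Elovl2 mutant left of 12-month wildtype, and the mean and SD per group. Slco1a4 is above the 12-month wildtype range in both other groups, Esam and Acta2 each hold one low 12-month wildtype library, and Anpep is lowest at 18 months.

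The age and genotype comparisons share their 3 wildtype libraries of 12 months, so values that are low in those libraries appear in both. Replicate 2 of that group was low for both classes: the median deviation of its tested members from their means was -0.19 (log2) for endothelial and -0.17 for mural members, while every other uninjected library lay between -0.03 and 0.11 for either class. Without that library the endothelial median was 0.03 with age and 0.04 in the mutant, and the mural median was -0.06 with age and 0.01 in the mutant. Without replicate 1 of the same group the mural median with age was 0.06, and the endothelial and mural medians in the mutant were 0.13 and 0.14. Without replicate 3 the endothelial median in the mutant was 0.14 and the mural median with age 0.03. The mural median with age also turned to 0.03 without 18-month replicate 1 and was 0.00 without 18-month replicate 3. When single libraries were left out, limma called 0 members with age and in the mutant at the adjusted threshold. Of all genes it then called at most 0.00723% with age and 0% in the mutant.

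Set directly against each other, 18-month wildtype and 12-month mutant retinas, which share no library, gave 0 members at an adjusted or unadjusted p under 0.05 in limma. Of all genes 0% passed the adjusted threshold, 1.04% were higher and 1.1% lower by unadjusted p, and edgeR and DESeq2 on recovered reads called 0 members. The endothelial median was 0.00 with 8 members above and 10 below 0, its sign changing with the library left out (-0.03 to 0.03), and the mural median was -0.06 with 6 of 6 below. Ly6a (-0.18, SE 0.136) and Notch3 (-0.18, SE 0.121) had the smallest p of their classes. Notch3 had 0.709, 1.24, 1.12 and 0.778 FPKM at 18 months, against 1.32, 1.15 and 1.13 FPKM in mutant retinas, with overlap. It passed the filter only through the mutant libraries, where it was highest, so its fold change and p are given as description only. The count of 6 mural members below 0 includes Notch3. Ly6c1 was at 0.19, Tek at 0.13, Eng at 0.09, Abcb1a at -0.08, Pecam1 at -0.11, Pdgfrb at -0.08, Abcc9 at -0.08 and Kcnj8 at -0.05, each within 2 SE of 0.

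**Figure D5:**
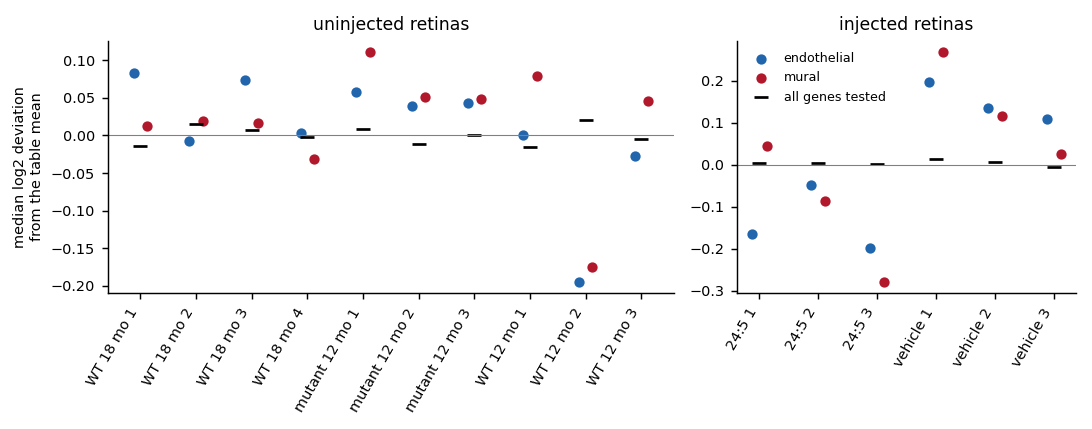
Median log2 deviation of endothelial (blue) and mural (red) members from their mean over the table, per library, with the median of all genes tested as a bar, for uninjected (left) and injected (right) retinas. Replicate 2 of 12-month wildtype stands low at -0.19 and -0.17, and the 3 endothelial medians with 24:5 (-0.17, -0.05 and -0.20) lie below the 3 with vehicle (0.20, 0.14 and 0.11).

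The endothelial and mural medians can be set side by side in each library. In injected retinas the endothelial medians were -0.17, -0.05 and -0.20 with 24:5, against 0.20, 0.14 and 0.11 with vehicle, and the mural medians were 0.05, -0.09 and -0.28 with 24:5, against 0.27, 0.12 and 0.03 with vehicle. The endothelial medians were apart between groups, while the mural ones crossed, since 24:5 replicate 1 stood above vehicle replicate 3. The endothelial minus mural difference per library ran from -0.21 to 0.08 with 24:5 and from -0.07 to 0.08 with vehicle. In uninjected retinas it ran from -0.03 to 0.07 at 18 months, from -0.05 to -0.01 in mutant and from -0.08 to -0.02 in 12-month wildtype retinas. These are medians over chosen genes and carry no test.

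Genes that act with the members were followed from 6 further lists. Of other vascular receptors, 17 of 20 tested were below 0 with 24:5 (median -0.25), 7 at an unadjusted p under 0.05, and of endothelial transcription factors and their targets 19 of 24 (median -0.16). Of basement membrane genes 7 of 10 were below 0 (median -0.22), of barrier, junction and caveolae genes 18 of 29 (median -0.06), of other mural genes 15 of 23 (median -0.09), and of ligands and secreted regulators 11 of 21 (median -0.01). No gene of these lists passed the adjusted threshold in edgeR. Over all 17466 genes 49.2% were below 0, 5.16% were lower at an unadjusted p under 0.05 and 6.77% were lower without overlap. The genes named from these lists are the 3 of smallest p per list, so they were picked by their values. The basement membrane proteoglycan Hspg2 (perlecan) had 7.44, 7.53 and 4.46 CPM with 24:5, against 12.0, 14.1 and 13.8 CPM with vehicle (log2 fold change -1.04, SE 0.208, adjusted p = 0.235). Its partner Nid1 had 5.37, 4.32 and 5.24 CPM, against 10.4, 15.5 and 6.03 CPM with vehicle, and the matricellular Sparc 293, 251 and 227 CPM, against 342, 299 and 312 CPM with vehicle. None of these 3 overlapped.

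Ligands lay on both sides of 0 with 24:5. Vegfa, the main growth factor of retinal vessels, had 79.8, 107 and 106 CPM with 24:5, against 74.5, 69.3 and 87.8 CPM with vehicle (log2 fold change 0.34, SE 0.136), where 24:5 replicate 1 lay below vehicle replicate 3. Its relative Pgf had 1.83, 2.16 and 1.15 CPM, against 5.89, 4.73 and 2.97 CPM with vehicle (-1.40), and Tgfb1 1.15, 0.635 and 0.737 CPM, against 2.05, 1.34 and 2.22 CPM with vehicle (-1.14). Both were apart between groups. The TGF-beta receptors Tgfbr1 (-0.33) and Tgfbr2 (-0.50) and the chemokine receptor Cxcr4 (-1.92) did not overlap either. Nor did the transcription factors Lyl1 (-1.42) and Fli1 (-0.67), the Wnt target Apcdd1 (-0.37), the amino acid transporter Slc38a5 (-1.27), the sphingosine phosphate receptor S1pr3 (-0.67) and the intermediate filament Des (-0.77). Cxcr4 (0.994, 0.55 and 0.368 CPM with 24:5) and Lyl1 (0.477, 0.719 and 0.368 CPM with 24:5) passed the count filter only through the vehicle libraries, where they were higher. The values of Cxcr4 and Lyl1 are therefore given as description only, and the list counts above include them. The endothelial receptors Adgrl4 (-0.38) and Clec14a (-0.99) and the transcription factor Zic1 (-1.33) overlapped.

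With age, 6 of 10 basement membrane genes passed the filter, and all 6 were below 0 in 18-month against 12-month wildtype retinas (median -0.12). Of all genes 50.6% were below 0 and 2.22% were lower without overlap. The laminin chain Lamb1 had 1.55, 1.504, 1.59 and 1.56 FPKM at 18 months, against 1.88, 2.01 and 1.98 FPKM at 12 months (log2 fold change -0.21, SE 0.077, adjusted p = 0.9999 in limma), without overlap. The collagen chain Col4a2 had 2.51, 3.38, 3.29 and 2.73 FPKM, against 4.31, 4.32 and 3.26 FPKM at 12 months (-0.32), and Col4a1 was at -0.24, both with overlap. The secreted guidance ligand Sema3c was 0.28 higher in mean log2 level at 18 months, and in mutant retinas the endothelial transcription factor Sox18 had 1.64, 1.69 and 1.68 FPKM, against 1.1, 0.658 and 1.2 FPKM in wildtype (0.44, SE 0.116). Neither passed the adjusted threshold in limma. Sema3c passed the filter only through the 18-month libraries, the group where it was higher, so its difference is given as description only. Its means were 1.27 FPKM at 18 months, 0.964 FPKM in mutant and 0.869 FPKM in 12-month wildtype retinas.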

How the data were processed

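RNA was poly(A)-selected from bulk retina and made into dUTP-marked libraries, per the labels' protocols. The authors deposited FPKM values for the 10 uninjected libraries and raw counts per gene for the 6 injected libraries. The submitters' processing notes name HISAT2 2.2.1, featureCounts 2.0.6, DESeq2 1.42.0 and mm10, and the strand setting of counting is not given in the sources used here. FPKM times gene length gave whole reads for 100% of values (tolerance 0.02 reads), which set the depth and an edgeR and DESeq2 alternative. FPKM values were tested with limma 3.58.1 on log2(FPKM + 1), with robust trend, over 13786 genes with a mean of at least 1 FPKM and all 3 groups in one fit, so differences of low genes are understated. For the counts, edgeR 4.0.16 was used with TMM scaling, its default filter on low genes and its quasi-likelihood test, over 17466 genes. CPM are TMM-scaled. P-values are two-sided and were adjusted by Benjamini-Hochberg over all genes, with a threshold of 0.05 (R 4.3.3). Both tests were also run on simulated independent libraries with the same spread for every gene, where only well-expressed genes were changed. Those simulations do not cover low members or libraries that differ as these do. The 2 tables were normalised separately, and no test crosses them. The members and gene lists were chosen with earlier results of these data known. Values are given per library for the 6 endothelial and 4 mural members with the smallest p in each comparison, and the 3 genes of smallest p per list. Alternatives tried were another pseudocount, no filter, other scalings and tools, a replicate block, library weights, splits by Malat1 or Irf9, and leaving out each library.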

Additional observations from a re-analysis of the deposited data

Results flagged for a closer look

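For 3 members 1 library lay far from the rest of the 4 wildtype libraries of 18 months, with a gap to the nearest library, divided by the group's range, above Dixon's critical value at the 95% level. For Cldn5, replicate 1 was high at 13.3 FPKM, where the others had 9.03 to 9.72 FPKM (gap over range 0.838). For Anpep, replicate 3 was low at 0.0302 FPKM, or 2 reads, where the others had 0.0657 to 0.0722 FPKM (0.847). For Tagln, replicate 4 was high at 0.300 FPKM, where the others had 0.103 to 0.125 FPKM (0.884). All 35 members were examined in this group, and chance flags about 1 in 20.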

How the results depend on the processing

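With library quality weights, which gave 12-month wildtype replicate 1 a weight of 5.76 and mutant replicate 2 one of 3.86, limma called 4 of 24 members with age (Esam, Kdr, Slco1a4 and Slco1c1), against 1246 of 13786 genes (9.04%), and 5 of 24 in the mutant (these and Abcb1a), against 2598 genes (18.8%). The endothelial median with age was then 0.0024, and log2 fold changes turned to -0.067 for Acta2 with age and to -0.037 for Acta2 and -0.12 for Pdgfrb in the mutant. Between 18-month wildtype and mutant retinas the mural median was -0.13 in edgeR and -0.11 in DESeq2 on recovered reads. In injected retinas the members called were 5 in DESeq2 (0.845% of genes), 3 without a count filter (85 of 28984 genes, 0.293%), and 5 with the Irf9 split at 100 CPM (1.72% of genes). The replicate block gave 3 members (Cd93, Vcam1 and Anpep) with 24:5, against 88 of 17466 genes (0.504%), and 0 in the other comparisons. Deviations of same-numbered libraries had correlations of 0.40, -0.20 and 0.42 in injected retinas, mixed or below 0 in the others. With so few libraries these correlations cannot decide whether equal numbers mark eyes of one mouse. The labels do not say so, and the numbers were not taken as pairs. Leaving out 1 library at a time gave 0 to 3 members called with 24:5 and an endothelial median of -0.34 to -0.22. It gave log2 fold changes of -0.16 to 0.41 for Acta2 and -0.096 to 0.067 for Pdgfrb with age, -0.11 to 0.45 for Acta2 and -0.020 to 0.14 for Pdgfrb in the mutant, and -0.0050 to 0.15 for Eng between 18-month wildtype and mutant retinas. The cause of these moves was not tested. Of the other values, 193 class medians and counts of calls moved by less than the spread between libraries or by under 1.5 times, 646 single-member values kept their direction and their side of the threshold, and 24 single-member values passed the threshold under an alternative. Depth limits the low members: Anpep had 2 to 24 reads and Tagln 3 to 10 reads per uninjected library.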

Other observations

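The 2 tables were normalised separately, so their levels per length are set side by side without a test, and the injection cannot be told apart from the table. Over 12861 genes tested in both, the CPM per kilobase in vehicle retinas over the FPKM in uninjected 18-month wildtype retinas had a median of 0.934. Over the 24 members among these genes the median was 1.48. The members with the highest ratios, chosen after their values were seen and all among the 11 members below the FPKM filter, so outside those 12861 genes, were Tagln (2.999 in vehicle retinas and 0.160 FPKM in uninjected retinas), Anpep (0.724 and 0.0600), Cd93 (3.18 and 0.425), Icam1 (1.82 and 0.312) and Vwf (3.42 and 0.762). In 24:5 retinas the same members had 2.58 (Tagln), 0.0918 (Anpep), 1.28 (Cd93), 0.799 (Icam1) and 1.69 (Vwf) CPM per kilobase. Esam (6.04 in vehicle and 6.10 FPKM in uninjected retinas) and Eng (2.09 and 2.04) stood close to each other in the 2 tables. Slc2a1 (58.9 and 69.3), Plvap (2.96 and 4.36) and Slco1c1 (1.93 and 3.67) were lower in vehicle retinas without overlap. Of the 24 members these 3 lay below without overlap, against 35.8% of the 12861 genes, and 14 lay above, against 25%.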
